A study of Homo sapiens with 9 samples.

Results

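Chromatin contacts were described at 4 genes of the nuclear lamina, LMNB1, LMNA, LMNB2 and LBR, chosen by name from the 19340 protein-coding genes that had Hi-C values. Each gene was represented by the 40 kb bins that overlap it and by their contacts with bins up to 1 Mb away. LMNB1 was the only member with values in the 10 kb capture Hi-C (cHi-C) data, in which 915 protein-coding genes were measured. An insulation score and a compartment score were compared for 3 of the members, since LMNB2 had no insulation value in growing replicate 2 and no compartment value in any library.

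The nuclear lamina is a meshwork of intermediate filaments that lines the inner nuclear membrane and holds much of the heterochromatin at the nuclear edge. LMNB1 and LMNB2 encode the B-type lamins, which stay attached to the membrane, and LMNA encodes the A-type lamins. LBR encodes the lamin B receptor, a membrane protein that binds B-type lamins and heterochromatin, and loss of lamin B1 is a widely used marker of senescent cells.

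All libraries came from IMR90, an established line of human diploid lung fibroblasts, at passage 20-25 and carrying a construct for ER:HRAS(G12V), an oncogenic HRAS fused to the oestrogen receptor. Growing cells received no tamoxifen, and cells in RAS-induced senescence (RIS) were given 4OHT (4-hydroxytamoxifen, at 100 nM) over 6 days. Hi-C covered 3 growing and 2 RIS libraries and cHi-C covered 2 and 2, and growing Hi-C replicate 3 also carried an MSCV vector. The study calls the libraries of a group biological replicates, and the labels number them but do not say that they came from separate cultures. The p-values thus measure the spread between these libraries, which may be partly technical. Limma draws the spread of each gene toward that of all genes. Contact maps hold no markers by which the cell type could be checked.

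The number of contacts behind the balanced Hi-C maps was 154318992, 175410468 and 180775315 in growing cells and 109967509 and 150689993 in RIS. Contacts between chromosomes made up 7.04% to 7.56% of them in growing cells and 9.60% to 9.81% in RIS, so the groups did not overlap in this share. The cHi-C libraries held 69098926 to 171730234 contacts, with fewer in both RIS libraries than in either growing library. Whether all duplicate reads had been taken out of the deposited maps was not settled here. The part that these differences in depth and in trans contacts played in the results was not tested.

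The members lie on 3 chromosomes of hg19. LMNB1 (ENSG00000113368) is on the plus strand at chr5:126112315-126172712, and LMNA (ENSG00000160789) is on the plus strand at chr1:156052364-156109872. LMNB2 (ENSG00000176619) is on the minus strand at chr19:2427636-2456957, and LBR (ENSG00000143815) is on the minus strand at chr1:225589204-225616627. Fragments were cut with HindIII, so a bin can only be seen through its HindIII sites, and the site nearest to each start is shown because it sets how closely a promoter could be sampled. The sequences read along each gene's own strand in GRCh37, with the AAGCTT site in capitals.
LMNB1, chr5:126110675-126110704, at -1625 bases from the start (negative is upstream): tacttaaagtctAAGCTTttcgattcttta
LBR, chr1:225616597-225616626, 15 bases downstream of the start, in the transcribed region: gcagaaaaaaaaAAGCTTaggatccgtaac
LMNA, chr1:156038277-156038306, at -14072 bases from the start: gctgactcctccAAGCTTagcccacctttc
LMNB2, chr19:2439018-2439047, 17924 bases downstream of the start, inside the gene: aaaaaaaaaaaaAAGCTTaagtgcctacaa

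The density of HindIII sites differed among the members. A 40 kb bin held a median of 12 sites over 69621 bins, with 7 at the 10th percentile and 17 at the 90th. LBR's bins held 13 and 15 sites and those of LMNB1 held 11, 8 and 10. LMNA's promoter bin held 3 sites, as few as in 0.928% of bins, and the bin with the start of LMNB2 held 0. Contacts within 1 Mb numbered 2582 to 3993 per library over the 2 bins of LBR and 3442 to 5126 over the 3 bins of LMNB1. They numbered 859 to 1176 at LMNA and 175 to 214 at LMNB2, so values at these members rest on few contacts.

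Shifts between the groups were common across the genome. The 2 groups of libraries did not overlap at 60.1% of all genes in contacts within 1 Mb, 54.9% upstream, 55.3% downstream, 63.9% in insulation, 67% in compartment score, 64.4% in the share beyond 2 Mb and 60.4% in the share with other chromosomes. In cHi-C the shares were 58.3% for contacts and 72% for insulation. A member whose groups do not overlap is thus no exception among genes.

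In the comparison of RIS with growing cells, LBR was the member whose insulation changed by the test. The insulation score is the log2 contact across a position within a 520 kb window over the chromosome mean, so that a lower score is a stronger boundary. At LBR it was -1.60, -1.57 and -1.62 in growing cells and -1.30 and -1.31 in RIS. Both RIS libraries were above all growing libraries, and the spread within a group was far smaller than the gap. The difference was 0.29 ± 0.029 (SE, n = 3 and 2; limma adjusted p = 0.00143), at the 99.0th percentile of all genes' differences. The growing level of LBR was lower than that of all but 0.505% of the 18602 genes measured. LBR was the 1 called member of 3, where 38.4% of all genes were called in either direction. The difference held without each library in turn, at 0.28 to 0.30, but with a 1 Mb window it was -0.027 (adjusted p = 0.543). In that window LMNA was the called member, at -0.20 (adjusted p = 0.0222), and LMNB1 was at 0.085.

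**Figure D1:**
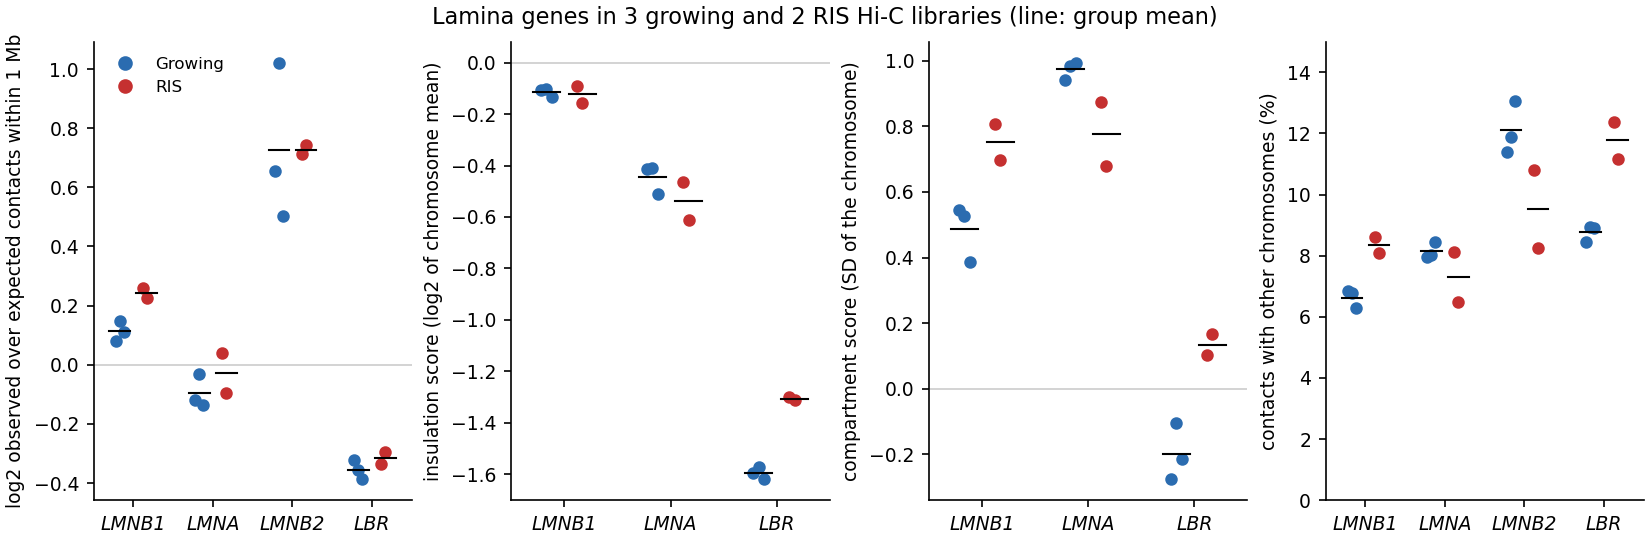
Values of each member in every Hi-C library for contacts within 1 Mb (log2 observed over expected), insulation score (log2), compartment score (SD of the chromosome) and contacts with other chromosomes (%), with points for libraries and lines for group means. LBR sits near -1.6 in insulation in growing cells and near -1.3 in RIS, and LMNB2 is not shown for insulation or compartment score.

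The boundary lay inside LBR itself, 16.6 kb downstream of its start, at the same bin edge in all 5 libraries. Its prominence, the depth of the dip against its flanks in log2 units, was 2.51, 2.46 and 2.49 in growing cells and 2.00 and 2.05 in RIS. The dip was thus shallower in both RIS libraries, and it was still the deepest in the 2 Mb around the gene in each library. The score was also higher in RIS on the DNAH14 side next to the dip, so the rise was not limited to the boundary. At 217 kb downstream it was -0.46, -0.46 and -0.49 in growing cells and -0.12 and -0.086 in RIS. On the upstream side, at -263 kb, it was lower in RIS, at 0.64, 0.63 and 0.62 against 0.53 and 0.54. The next boundary on the DNAH14 side, 497 kb downstream of the start of LBR, had a prominence of 0.590, 0.669 and 0.588 in growing cells and 1.10 and 1.08 in RIS. On the other side the strongest boundary lay at -583 kb from the start (negative is upstream) in growing replicates 2 and 3 and at -623 kb in growing replicate 1, against -703 kb in both RIS libraries. These dips lie close together and were similar in depth, at -0.93 (-583 kb) and -0.95 (-703 kb) in RIS replicate 2. Scores at -583 kb overlapped, at -0.93, -0.98 and -1.04 in growing cells and -0.97 and -0.93 in RIS, so a move of the boundary is not shown. Prominences and positions were not tested.

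**Figure D2:**
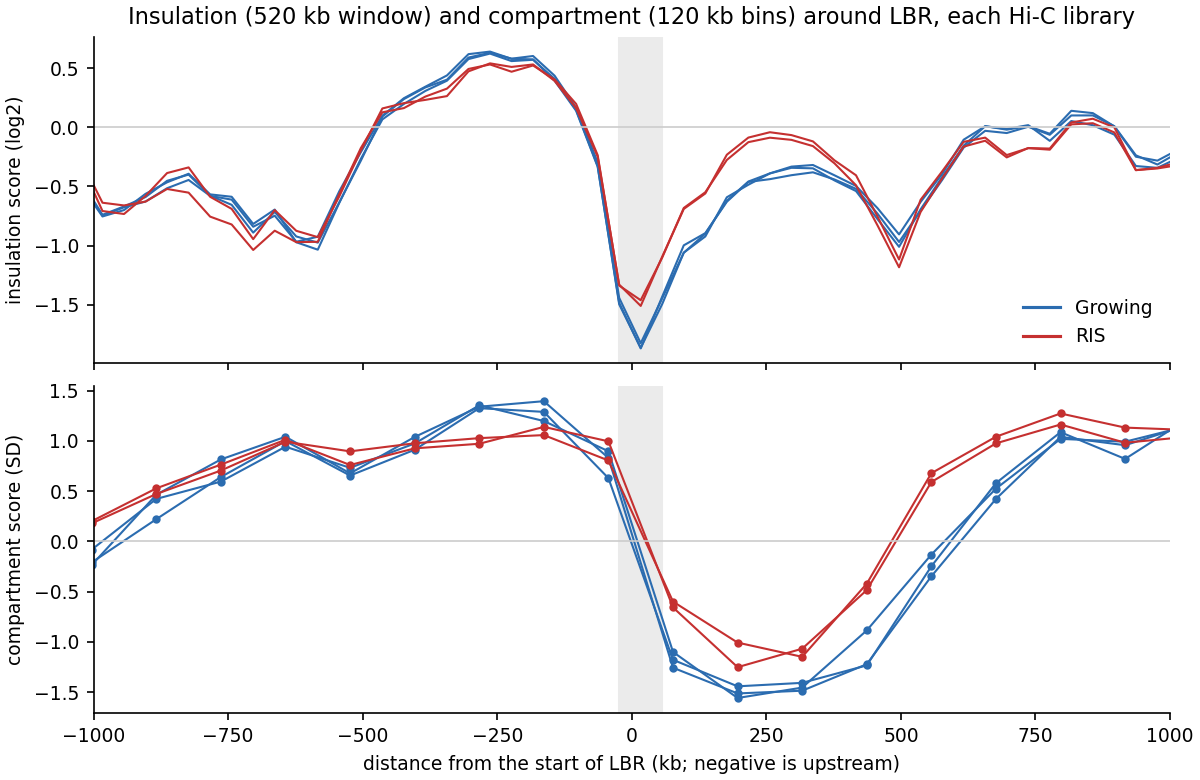
Insulation score (log2, 520 kb window) and compartment score (SD of the chromosome, 120 kb bins) within 1 Mb of the start of LBR, with 1 line per Hi-C library and the bins of LBR in grey. The insulation score at LBR and on the DNAH14 side next to it is higher in both RIS libraries, and the B compartment side downstream of LBR is less negative in RIS.

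LBR also lay where the compartment score crosses 0. The score is the first component of the contact pattern in 120 kb bins, scaled by the chromosome's SD, with positive values on the gene-rich A side and negative values on the B side. Averaged over the bins of LBR it was -0.28, -0.10 and -0.21 in growing cells and 0.10 and 0.17 in RIS, with no overlap. The difference was 0.33 ± 0.063 (limma adjusted p = 0.0039) and kept its call without any 1 library, at 0.29 to 0.38. LBR spans 2 such bins, and they did not move alike. The bin with the gene's end and DNAH14 was at -1.18, -1.10 and -1.26 in growing cells and -0.60 and -0.66 in RIS, whereas the bin with the promoter was at 0.63, 0.90 and 0.83 and at 0.80 and 0.99. The promoter side was on the A side in every library and its groups overlapped.

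LMNB1 and LMNA moved in opposite directions in the same score. At LMNB1 it was 0.55, 0.53 and 0.39 in growing cells and 0.81 and 0.70 in RIS, a difference of 0.27 ± 0.065 (limma adjusted p = 0.0118). Without RIS replicate 1 the difference was 0.21 (adjusted p = 0.106). LMNB1 spans 2 such bins, and the one with its start lies mostly upstream of the gene. That bin was at 0.27, 0.34 and 0.13 in growing cells and 0.73 and 0.50 in RIS. The bin with the rest of the gene moved less, from 0.82, 0.72 and 0.65 to 0.89 and 0.90. At LMNA the score was 0.94, 0.98 and 0.99 in growing cells and 0.87 and 0.68 in RIS, a difference of -0.20 ± 0.065 (limma adjusted p = 0.0371). The call at LMNA was lost without RIS replicate 2, at -0.10 (adjusted p = 0.294), without growing replicate 2, at -0.19, and without growing replicate 3, at -0.19. Measured instead as the preference of its bins for A over B partners, LMNA was higher in RIS by 2.00 on the log2 scale (adjusted p = 0.0146), the opposite direction. All 3 members measured were thus called, 2 higher and 1 lower, against 46.4% of all genes. The shifts at LMNB1 and LMNA were not limited to these genes. In the bin at 548 kb from the start of LMNB1 the score was -0.14, -0.18 and -0.30 in growing cells and 0.26 and 0.29 in RIS. At -232 kb from the start of LMNA it was 0.97, 0.97 and 1.08 against 0.81 and 0.70. Not all neighbouring bins moved alike, as at -412 kb from LMNB1 the score was lower in RIS and at 368 kb from LMNA the groups overlapped.

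The contact profile of LBR had its highest point in a bin that holds SDE2, a gene of the replication stress response, at -563 kb from the start. Observed over expected contact there was 3.74, 4.44 and 3.92 in growing cells and 3.05 and 2.81 in RIS. In the neighbouring bin at -523 kb it was 3.49, 3.41 and 3.62 against 2.33 and 2.49. Both bins were lower in both RIS libraries than in any growing library. The loss was not limited to them, since the bins from -603 to -723 kb were also lower in both RIS libraries. At -683 kb the ratio was 2.15, 1.85 and 1.83 in growing cells and 1.31 and 1.03 in RIS. In the bins at -483 and -763 kb the groups overlapped. On the other side, in a bin of DNAH14 477 kb downstream, the same ratio was 0.906, 1.13 and 1.31 in growing cells and 1.58 and 1.94 in RIS. DNAH14 encodes an axonemal dynein heavy chain, and not all of its bins separated the groups. In the bin 76.6 kb downstream the ratio was 0.840, 0.795 and 0.799 in growing cells and 0.770 and 0.801 in RIS, which overlapped.

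**Figure D3:**
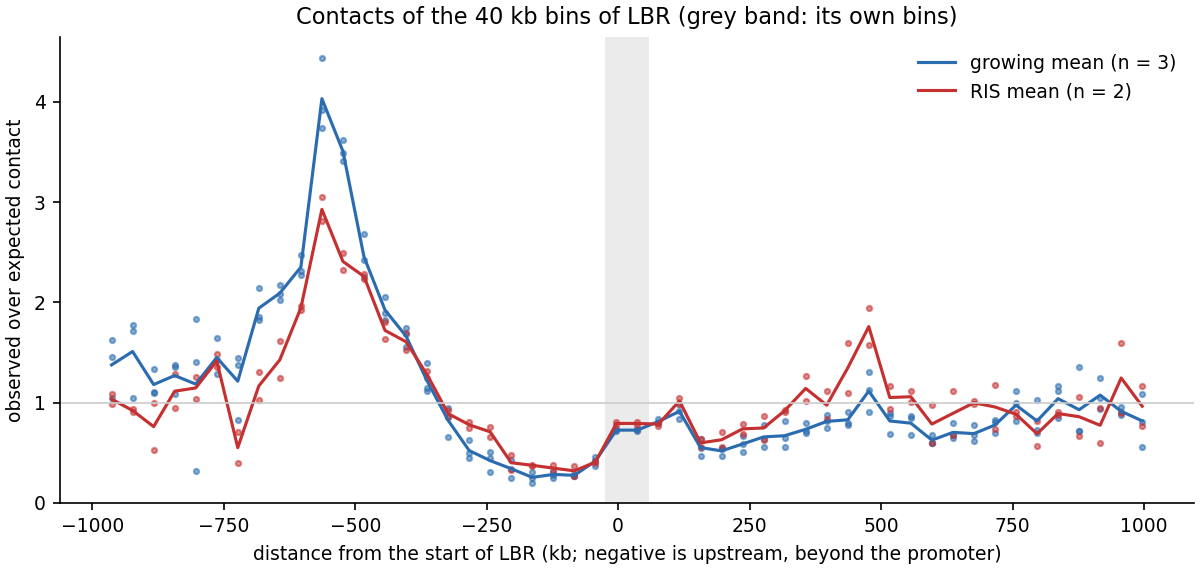
Observed over expected contact of the 40 kb bins of LBR with each bin within 1 Mb, against distance from the start of LBR (kb), with points for libraries and lines for group means. The peak at -563 kb is lower in RIS and a smaller peak at 477 kb is higher.

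Summed over 1 Mb on each side, LBR lost contacts upstream and gained them downstream. Upstream contacts (log2 observed over expected) were -0.28, -0.29 and -0.33 in growing cells and -0.44 and -0.42 in RIS, a difference of -0.13 ± 0.036 (limma adjusted p = 0.0473). Downstream contacts were -0.35, -0.41 and -0.43 in growing cells and -0.23 and -0.18 in RIS, a difference of 0.19 ± 0.042 (limma adjusted p = 0.0302). Neither pair of groups overlapped, yet both calls were lost whichever library was left out, with differences of -0.15 to -0.12 and 0.16 to 0.22. Upstream contacts over 500 kb in place of 1 Mb differed by 0.086 (adjusted p = 0.141), and on recovered contacts the upstream and downstream differences were -0.084 and 0.17, neither called. In contacts on both sides together LBR was at -0.32, -0.35 and -0.39 in growing cells and -0.34 and -0.29 in RIS, which overlapped. Within 500 kb the difference in these was called, at 0.15 (adjusted p = 0.0157).

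Single pairs of bins were sparse, and the outcome depended on the test. By limma on log2 balanced values, 0 of the 113 pairs of LBR passed, where 0.0577% of all pairs passed. At an unadjusted p under 0.05 were 21 of the 113, where 206917 of all 2087248 pairs were. By voom, a count-weighted form of limma, on contacts recovered from the balanced values, 5 of the 113 pairs passed, 4 higher and 1 lower, where 1.17% of all pairs passed, 0.789% higher and 0.378% lower. The lower pair joined the promoter bin to the SDE2 bin, with 148, 198 and 167 contacts in growing cells and 86 and 88 in RIS before scaling, a log2 difference of -0.57 ± 0.14 (voom adjusted p = 0.0248). The largest of the higher pairs joined the promoter bin to a bin of DNAH14 437 kb downstream, with 10, 7 and 14 contacts against 18 and 22, a log2 difference of 1.48 ± 0.34 (voom adjusted p = 0.0101). The other 3 were with DNAH14, at 0.89, and with 2 bins of ENAH, which encodes an actin regulator, at 0.98 and 1.06. With voom weights on the balanced values, a setting chosen after seeing the data, 4 pairs of LBR passed, where 0.503% of all pairs passed. Over all 4 members that number was 2 without growing replicate 1, 1 without growing replicate 2 and 0 without RIS replicate 1 or RIS replicate 2.

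Sequences resembling the core bound by CTCF, a protein found at many boundaries, were searched for on both strands as CCA, any 2 bases, AG, any base and GGGC, and 21.2% of all 40 kb bins held a match. The matches in the bins of LBR and in its SDE2 and DNAH14 partner bins are shown because these bins carry the boundary and the contacts that differed, with the match in capitals.
LBR bins, chr1:225606568-225606597, minus strand, inside LBR: cggcaggggCCAGCAGTGGGCctcagctgc
LBR bins, chr1:225625908-225625937, plus strand, upstream of LBR: ctaggcctgCCAGAAGGGGGCtcctcctcc
SDE2 bin, chr1:226163850-226163879, minus strand: ttcctgtaaCCACTAGAGGGCgctgtgcac
DNAH14 bin, chr1:225169800-225169829, minus strand: aagtaaacaCCAGTAGGGGGCaatatccct
LMNA's bins also held 2 matches, and the 3 bins of LMNB1 and the 1 bin of LMNB2 with values held none. The MEGF10 bin 548 kb downstream of the start of LMNB1 also held none. Nor did the bins on each side of the LMNB1 boundary 768 kb downstream. A match describes the letters of the reference and is not a measured site.

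The share of contacts that LBR made with distant parts of its own chromosome fell, a call that was lost once each library was centred on its median over genes. Contacts beyond 2 Mb were 30.3%, 31.8% and 31.8% of its total in growing cells and 28.6% and 25.1% in RIS. The difference was -4.42 ± 1.22 percentage points (limma adjusted p = 0.00207), beside a median of -2.30 over all genes, and LBR was the 1 called member of 4 where 42.2% of all genes were called. The SE was the same, 1.22, at all 4 members, because limma pooled the spread over genes here. It and the p-value thus do not measure the spread of LBR itself, whose SD was 0.875 in growing cells and 2.44 in RIS. Without RIS replicate 2 the difference was -2.69, and after centring it was -1.74 (adjusted p = 0.0689). The share with other chromosomes at LBR was 8.46%, 8.94% and 8.91% in growing cells and 12.4% and 11.2% in RIS, a rise of 3.00 ± 0.51 percentage points (limma adjusted p = 0.00641) beside a median rise of 1.02 over all genes. At LMNB1 this share was 6.84%, 6.77% and 6.29% against 8.60% and 8.08%, a rise of 1.71 ± 0.44 (limma adjusted p = 0.0238). These were 2 called members of 4, where 37.8% of all genes were called. LMNB1 lost its call without any 1 of growing replicates 1, 2 and 3 or RIS replicate 1, at 1.45 to 1.81, and after centring, at 0.725 (adjusted p = 0.219). After centring LMNA and LMNB2 were called lower, at -1.82 (adjusted p = 0.0363) and -3.57 (adjusted p = 0.0142).

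LMNB1 gained contacts within 1 Mb in RIS. On the log2 observed over expected scale its contacts were 0.080, 0.15 and 0.11 in growing cells and 0.26 and 0.22 in RIS, and the groups did not overlap. The difference was 0.13 ± 0.027 (limma adjusted p = 0.0203), at the 89.2nd percentile, and LMNB1 was the 1 called member of 4 where 29% of all genes were called. The call was lost without growing replicate 1, at 0.11, without growing replicate 3, at 0.13, without RIS replicate 1, at 0.11, and without RIS replicate 2, at 0.15. It was also lost within 500 kb, at 0.092 (adjusted p = 0.0765), and after centring, at 0.088 (adjusted p = 0.056). Its upstream contacts were -0.19, -0.11 and -0.11 in growing cells and 0.10 and 0.015 in RIS, a difference of 0.20 ± 0.047 (limma adjusted p = 0.0334). This upstream call was lost whichever library was left out, at 0.15 to 0.24, within 500 kb, at 0.18, and after centring, at 0.16. Upstream, 2 of 4 members were called, LMNB1 higher and LBR lower, against 20.6% of all genes, and downstream 1 of 4, LBR, against 20.5%.

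LMNB1 lay between a boundary at -152 kb from its start and one at 768 kb, at a 40 kb bin edge that falls in PRRC1. The upstream boundary had a prominence of 1.48, 1.48 and 1.49 in growing cells and 1.36 and 1.40 in RIS. A weak boundary 7.69 kb downstream of the start passed the minimum prominence of 0.1 in both RIS libraries, at 0.161 and 0.151, and in no growing library. The scores at that edge overlapped, at -0.21, -0.22 and -0.28 in growing cells and -0.26 and -0.31 in RIS. The insulation score of LMNB1 in Hi-C was -0.11, -0.10 and -0.13 in growing cells and -0.090 and -0.16 in RIS, with the RIS libraries on both sides of the growing ones. In the pairs of 40 kb bins, 0 of 129 pairs of LMNB1 passed by limma, where 0.0577% of all pairs passed. At an unadjusted p under 0.05 were 14 of the 129, where 206917 of all 2087248 pairs were. By voom on recovered contacts 1 of the 129 passed, no more than the 1.17% of all pairs that passed, 0.789% higher and 0.378% lower. This higher pair was with a bin of MEGF10, which encodes an engulfment receptor, at 19, 18 and 18 contacts in growing cells and 29 and 26 in RIS.

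At 10 kb resolution the gene body of LMNB1 held a clear boundary that deepened in RIS. The cHi-C insulation score, in a 100 kb window, averaged over the gene -0.42 and -0.45 in growing cells and -0.63 and -0.64 in RIS. The difference was -0.20 ± 0.024 (SE, n = 2 and 2; limma adjusted p = 0.00197), at the 4.97th percentile of 664 genes, of which 41.9% were called in either direction. It stayed between -0.22 and -0.17 and kept its call under all 7 alternatives tried, including each library left out. The lowest point lay 37.7 kb downstream of the start, inside the gene, at -0.71 and -0.75 in growing cells and -1.04 and -1.11 in RIS. Its prominence was 1.46 and 1.55 against 1.87 and 2.02. Edges without a score at the ends of the captured region were set to the library's highest score there. For this dip the prominence is thus the depth below that highest score. Lower scores in RIS were not limited to LMNB1. At the dip 258 kb downstream they were -0.33 and -0.32 in growing cells and -0.45 and -0.49 in RIS. At the dip at 518 kb they were -0.26 and -0.22 against -0.33 and -0.37. The dip at 438 kb overlapped between the groups, and the one at 398 kb was higher in both RIS libraries. Single dips were not tested.

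**Figure D4:**
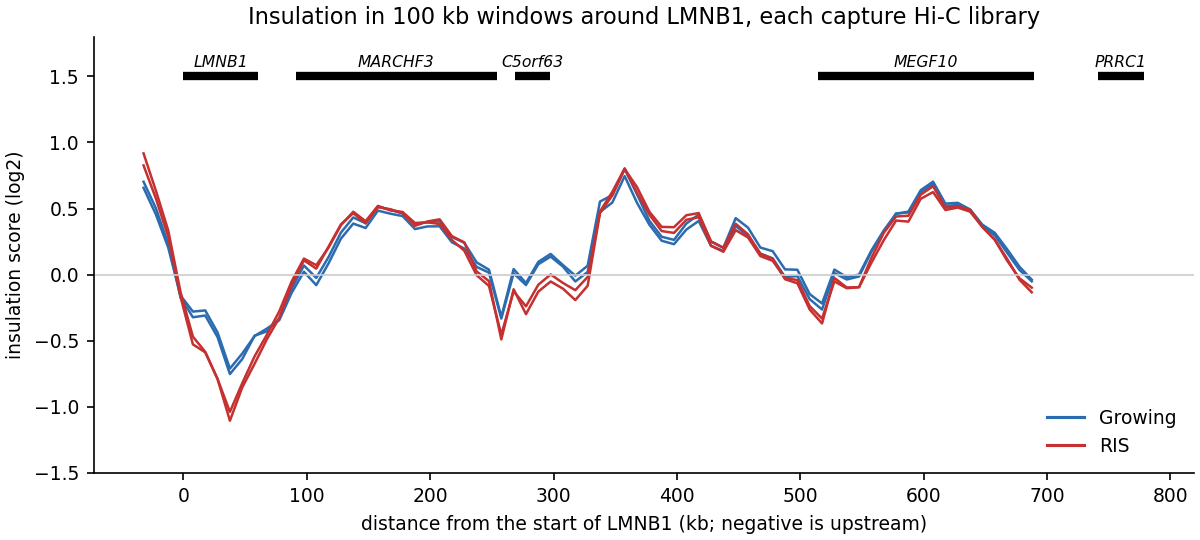
Insulation score (log2, 100 kb window) in cHi-C around LMNB1 against distance from its start (kb), with 1 line per library and genes as black bars. The dip inside LMNB1 reaches -0.71 and -0.75 in growing cells and -1.04 and -1.11 in RIS.

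The summed cHi-C contacts of LMNB1 did not show a called change. They were 0.26 and 0.28 on the log2 observed over expected scale in growing cells and 0.31 and 0.29 in RIS, a difference of 0.026 ± 0.017 (limma adjusted p = 0.392), where 4.7% of the 915 genes were called. The captured region around LMNB1 ran over chr5:125980001-126900000 with values in 90 of its 92 bins. It also held MARCHF3, which encodes a membrane-associated ubiquitin ligase, C5orf63, MEGF10 and PRRC1.

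Pairs of 10 kb bins showed gains and losses at LMNB1 that a sum over the region does not hold apart. By limma 0 of its 601 pairs passed, where 0.0349% of all captured pairs passed. At an unadjusted p under 0.05 were 108 of the 601, where 48137 of all 329692 captured pairs were. By voom on recovered contacts 101 pairs passed, 87 higher and 14 lower, or 16.8% where 12.7% of all pairs passed, 6.84% higher and 5.86% lower. With voom weights on balanced values, added after seeing the data, 80 passed, 55 higher and 25 lower, where 8.02% of all pairs passed, 4.13% higher and 3.89% lower. That number ranged from 25 to 78 when 1 library was left out, with 25 without growing replicate 1, 44 without growing replicate 2 and 33 without RIS replicate 1.

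The 10 kb bin with the start of LMNB1 gained contacts upstream and lost them within the gene by voom on recovered contacts. Of its 13 pairs with bins upstream, 10 were higher in RIS and 0 lower, and of its 6 pairs within LMNB1, 5 were lower and 0 higher. Of all captured pairs 6.84% were higher and 5.86% lower, shares that are not matched for the number of contacts. These pairs share 1 bin and their partners adjoin, so they are not independent. The start bin's pair with the bin 232.7 kb downstream in MARCHF3 had 1150 and 944 contacts in growing cells and 426 and 243 in RIS before scaling. This was a log2 difference of -0.72 ± 0.11 (voom adjusted p = 1.04e-06). Of its 17 pairs with MARCHF3, 4 were lower and 0 higher, and of the 102 such pairs of the other 6 bins of LMNB1, 13 were higher and 1 lower. With voom weights on balanced values 7 of the 17 were lower and 0 higher. In that setting 1 of the 102 was higher and 0 lower, so the gain of the other bins depended on the setting. Its pair with the bin at -97.3 kb had 1786 and 1589 contacts against 1570 and 1087, which after scaling for depth was a log2 difference of 0.57 ± 0.080 (voom adjusted p = 3.85e-07).

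**Figure D5:**
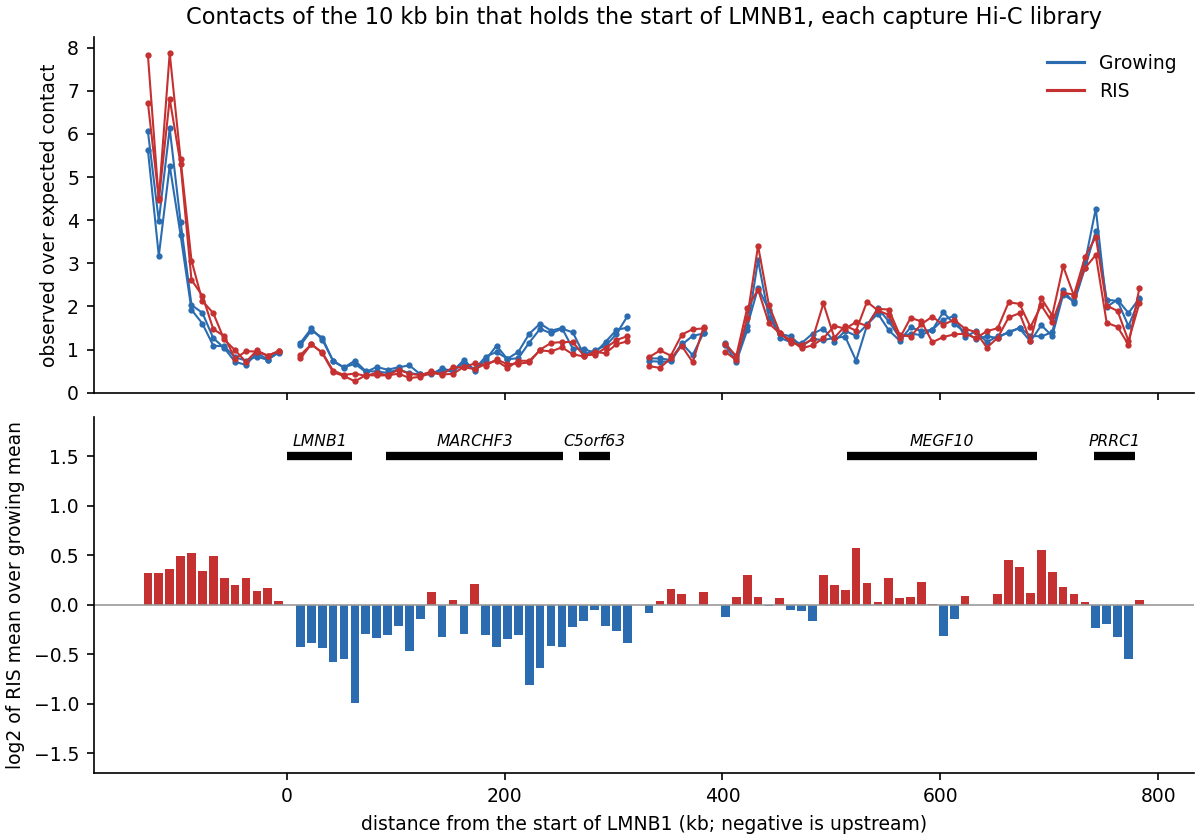
Observed over expected contact of the 10 kb bin with the start of LMNB1 in each cHi-C library (top) and log2 of the RIS mean over the growing mean (bottom), against distance from the start (kb), with genes as black bars. Bars are above 0 upstream and below 0 within LMNB1.

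Of the 114 pairs that the other 6 bins of LMNB1 made with MEGF10, 32 were higher in RIS and 0 lower by voom on recovered contacts. Of the 19 such pairs of the first bin 3 were higher and 0 lower, where 6.84% of all captured pairs were higher and 5.86% lower. The first bin was not tested against the others. Of all 35 pairs with PRRC1, 0 passed by voom on recovered contacts. In 100 kb windows over the whole gene, a summary added after seeing the data, contacts in the fifth window downstream rose by 0.32 ± 0.048 (limma adjusted p = 0.0384) and those in the sixth by 0.33 ± 0.046 (limma adjusted p = 0.0352), where 16.5% of windows were called. Both calls were lost whichever library was left out, at 0.29 to 0.36.

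LMNA, on the A side in every library, sat next to a boundary at -12.4 kb from its start. Its prominence was 0.875, 0.798 and 0.857 in growing cells and 0.764 and 1.09 in RIS, so that the RIS libraries lay on both sides of the growing ones. The contacts of LMNA within 1 Mb were -0.12, -0.030 and -0.14 in growing cells and 0.040 and -0.096 in RIS (difference 0.067 ± 0.050, limma adjusted p = 0.341). Its insulation score was -0.42, -0.41 and -0.51 against -0.47 and -0.61 (difference -0.093 ± 0.051, limma adjusted p = 0.184). Both sets of groups overlapped. By limma 3 of the 67 pairs of LMNA passed, where 0.0577% of all pairs passed, and these rested on 0 to 4 contacts per library. By voom on recovered contacts 1 of the 67 passed, where 1.17% of all pairs passed. This pair was with a bin that holds PMF1 and SLC25A44, at 104, 130 and 130 contacts against 123 and 145.

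LMNB2 could be seen only through the bin with its gene end. Its contacts within 1 Mb were 0.65, 1.02 and 0.50 in growing cells and 0.71 and 0.74 in RIS, a difference of 0.00059 ± 0.14 (limma adjusted p = 0.998). The growing libraries spanned the RIS ones, and growing replicate 2 stood above the rest. At the bin edge inside LMNB2 the insulation score was -0.26 and -0.24 in RIS, against 0.025 (replicate 1) and -0.16 (replicate 3) in growing cells, and it was not tested. The share with other chromosomes was 11.4%, 11.9% and 13.1% in growing cells and 10.8% and 8.25% in RIS, a difference of -2.59 ± 0.86 percentage points that did not pass (limma adjusted p = 0.0534) although the groups did not overlap. By limma 1 of its 38 pairs passed, on 0 to 2 contacts per library, where 0.0577% of all pairs passed. By voom on recovered contacts 0 passed. At an unadjusted p under 0.05 by voom were 5 of the 38, where 272420 of all 2087248 pairs were.

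Contacts between the members' loci were too few to compare. Between the regions of LMNA and LBR, both on chromosome 1, there were 10 to 31 contacts per library, and between any 2 regions on different chromosomes 0 to 11.

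Of 20 other genes of the nuclear envelope and lamina, all but EMD had Hi-C values. For insulation, 3 of the 19 were higher in RIS and 4 lower, where 19.9% and 18.5% of all genes were. ANKLE2, a protein of nuclear envelope reassembly, fell by 0.74 ± 0.091 and SUN1, a bridge to the cytoskeleton, fell by 0.23 ± 0.059. The bins of both were sparse, with 615 to 1092 contacts within 1 Mb per library at ANKLE2 and 605 to 1020 at SUN1. LEMD3, an inner membrane protein, rose by 0.25 ± 0.039 and TPR, of the nuclear pore basket, rose by 0.16 ± 0.027. The others called were NUP153 (higher) and SUN2 and FNTA (lower). The median difference of the 19 was 0.0073, beside 0.0063 over all genes.

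For the compartment score, 4 of the 19 were higher and 7 lower, where 24.1% and 22.2% of all genes were. SYNE3, which encodes a nesprin, rose by 0.43 ± 0.052 and LEMD3 rose by 0.34 ± 0.048, with SYNE2 and FNTB also higher. TMPO, which encodes the LAP2 proteins that bind lamins, fell by 0.32 ± 0.073, and TOR1A, SUN1, BANF1, ANKLE2, NUP153 and RCE1 were also lower. The median difference was -0.071, beside -0.014 over all genes.

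For contacts within 1 Mb, 4 of the 19 were higher and 0 lower, where 23.1% and 5.92% of all genes were. They were LEMD2, SYNE3, TOR1AIP1 and ZMPSTE24, the last of which encodes the protease that matures prelamin A. The median difference was 0.036, beside 0.038 over all genes. Upstream, TMPO and LEMD3 were higher and ANKLE2 lower, where 13.7% and 6.86% of all genes were. Downstream, LEMD2 and SYNE3 were higher and ANKLE2 and LEMD3 lower, where 12.5% and 8.07% were. For contacts beyond 2 Mb, 0 were higher and 10 lower, where 3.96% and 38.2% of all genes were, and for contacts with other chromosomes 7 were higher and 0 lower, where 34.4% and 3.35% were. In cHi-C, 2 of the list had values, and LEMD2 had a difference in insulation of -0.24 ± 0.023 (limma adjusted p = 0.0012). The other, ICMT, was at -0.067 and was not called, where 41.9% of all genes in cHi-C were.

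The genes whose values were most like those of a member, by Euclidean distance over 15 values (contacts within 1 Mb, insulation and compartment score in each of 5 Hi-C libraries) among 18526 genes, were C10orf105, MED12L and CACNA1S for LMNB1, at 0.468, 0.472 and 0.516. For LMNA they were RBMS2, PAF1 and PSAP, at 0.556, 0.598 and 0.606. LBR had no gene as near, with GSDMC, TTLL12 and KANSL2 at 0.943, 1.15 and 1.21, and LMNB2 could not be placed.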

How the data were processed

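The authors cut chromatin with HindIII, ligated it in the nucleus, aligned reads to hg19 with HiC-Pro after FastQC, described removing artefacts and duplicates, and deposited balanced signal per bin pair for each library (40 kb Hi-C, 10 kb cHi-C; SureSelect enrichment). The deposited signal was divided by 1 factor per bin to recover whole contacts (tolerance 0.05). Bin lengths matched GRCh37, so that genome and GENCODE v44lift37 were used for positions and sequence. Whether all duplicates were removed from the deposited matrices was not settled here. The study's alignment summary lists many more duplicates for growing Hi-C replicate 3 and RIS replicate 2 than for the other Hi-C libraries, and these were also fitted as a class.

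Contacts over the mean at the same distance gave local, upstream and downstream values. The insulation score, the compartment score and the shares beyond 2 Mb and on other chromosomes were averaged over a gene's bins. RIS was compared with growing in all libraries of an assay by limma 3.58.1 in R 4.3.3 (lmFit, eBayes), Benjamini-Hochberg adjusted at 5% over all genes, other steps running in Python 3.11.15. Pairs of bins up to 2 Mb apart with a mean scaled value of at least 5 were tested on log2(value + 0.5) after loess (span 0.3, 4 iterations). On simulated data with known changes the differences between group means were close to the changes put in, which the simulation builds in and which does not test the fits. Limma missed small changes, including doublings of single bin pairs that voom found in part, and recovered large ones, so 0 pairs by limma does not show that pairs were unchanged. An exact permutation test could not go below p = 0.1 for Hi-C or 0.333 for cHi-C and was not used.

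The members and lists were chosen with earlier results of these data known. Named genes were the members, the listed envelope genes that were called, genes in called pairs, genes in the captured region of LMNB1 and the 3 nearest in pattern over 2 Mb away. Alternatives were block terms, centring, distances, windows, balancing, pseudocount, minimum value, scaling, voom and each library left out. Voom weights on balanced values and the tests in windows were added after seeing the data. Contacts are not independent molecules, so counts carry more than counting error.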

Additional observations from a re-analysis of the deposited data

How the results depend on the processing

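Direction and call held for the insulation of LBR (9 of 10 alternatives), its compartment score (10 of 10) and its share with other chromosomes (8 of 8), and for the cHi-C insulation of LMNB1 (7 of 7). Members called in contacts within 1 Mb (main 1) were 2 on recovered contacts, 0 after centring each library on its median and 0 to 1 with a library left out. Upstream (main 2) they were 0 over 500 kb, 1 on recovered contacts, 1 after centring, 1 with the duplicate class as a block and 0 to 1 with a library left out, the 1 being LMNB2 without growing replicate 2, at 0.27. Downstream (main 1) they were 2 on recovered contacts and 0 with any library left out. For the share beyond 2 Mb (main 1) they were 0 after centring and 0 to 3 with a library left out, the 3 being LBR, LMNB1 and LMNA without RIS replicate 1. For the share with other chromosomes (main 2) they were 3 after centring, LBR higher and LMNA and LMNB2 lower, and 1 to 2 with a library left out, of which LMNB2 without RIS replicate 1 was lower, at -3.87. Called 40 kb pairs (main 4) were 7 by voom, 0 with a pseudocount of 2, 0 with a minimum of 10, 0 with the duplicate class as a block, and 0 with any library left out. With voom weights on balanced values they ranged from 0 to 3 with a library left out. Called cHi-C pairs of LMNB1 (main 0) were 101 by voom, 80 with voom weights on balanced values, 25, 44, 33 and 78 without growing replicates 1 and 2 and RIS replicates 1 and 2, and 1 when scaled to the total, which shifted the median pair by -0.069 (-0.12 in Hi-C). The cause of these changes was not tested.

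Values that changed direction were, in contacts within 1 Mb, LMNA at -0.0011 to 0.13 with a library left out, LBR at -0.0011 after centring and LMNB2 at -0.013 over 500 kb, -0.010 beyond 100 kb, -0.040 after centring and, with a library left out, -0.11 to 0.15. The others were LMNA upstream at -0.22 to 0.39 with a library left out, LBR upstream at 0.086 over 500 kb, LMNB2 downstream at 0.20 on recovered contacts and -0.25 to 0.016 with a library left out, the insulation of LMNB1 at 0.085 and of LBR at -0.027 in a 1 Mb window, and of LMNB1 at -0.042 to 0.024 with a library left out. The compartment score of LMNA was 2.00 as A over B preference. The share beyond 2 Mb after centring was 1.28 at LMNB1, 0.383 at LMNA and 0.857 at LMNB2, and -2.99 to 0.194 at LMNB1 with a library left out. The cHi-C contacts of LMNB1 were -0.036 within 200 kb.

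Replicate numbers were not treated as pairs, and deviations of same-numbered libraries correlated at -0.17 to 0.14 in Hi-C. With so few libraries this cannot exclude pairing. In cHi-C the correlations were 0.26 for contacts and 0.21 for insulation over only 2 pairs, whose deviations mirror each other and so give the same value. With the replicate number as a block, members called fell to 0 in contacts within 1 Mb, 0 upstream, 0 downstream, 0 beyond 2 Mb and 1 with other chromosomes, and 0 of the 40 kb pairs passed. LMNB2 was then at -0.11 in contacts within 1 Mb. Depth limits LMNA and LMNB2 most, and groups of 2 and 3 libraries limit every test.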
